A study of Mus musculus with 7 samples.

Results

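The suprabasal and mucosal keratins examined here are Krt1, Krt10, Krt2, Krt77, Krt78 and Krt80 of differentiating epithelial layers and Krt4 and Krt13 of internal stratified epithelia. They were taken as a list of gene names, drawn up with earlier results of these data known, and all 8 were found among the 18193 named genes of the arrays, on 11 of the 34945 probe sets with exactly 1 gene symbol. Carcinoma cells gave 4 arrays and papilloma cells 3, all from mouse skin tumours raised with the carcinogen DMBA and the promoter TPA, and all sorted for the surface antigens CD34 and Epcam. In each tumour type the title of 1 array ends in the tag GFP and not in a number, and the labels explain neither the tag nor the word Nr2f2 that precedes the tumour type in every description. Strain, sex, age, genotype and the number of tumours or animals behind an array are not stated in the labels, so the p-values below measure only the spread between these arrays, which may be technical.

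Keratins are filament proteins that assemble in pairs of a type I and a type II chain. Basal keratinocytes use Krt14 with Krt5. On leaving the basal layer the cells of the epidermis switch to Krt10 with Krt1, and those of oral and oesophageal epithelium to Krt13 with Krt4. In mouse skin tumours Krt13 is known as a keratin that appears out of place during progression, and loss of Krt1 and Krt10 is known from malignant tumours. The title of the series links the nuclear receptor Nr2f2 to repression of differentiation, so the question for these keratins is how their levels in carcinoma cells compare with those in papilloma cells.

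The type I members Krt10 and Krt13 lie on chromosome 11 of the RefSeq annotation, and the other 6 members, all type II, lie on chromosome 15. RefSeq promoter windows (build GRCm38.p6) were found for 5 of the 8 members, Krt10, Krt13, Krt2, Krt77 and Krt78. The 250 bases before the start are shown for Krt10 and Krt13, since these were the members with a window that differed most between the tumour types, and in opposite directions. Both windows lie on the minus strand, that of Krt10 at chr11:99389365-99389614 and that of the outer of the 2 starts listed for Krt13 at chr11:100121567-100121816. Capitals mark AGGTCA (a core motif of nuclear receptors), TGANTCA (the AP-1 site), CACCC (the box of Krüppel-like factors) and TATAAA, each searched on both strands, with no overlap between motifs in these windows.

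Krt10: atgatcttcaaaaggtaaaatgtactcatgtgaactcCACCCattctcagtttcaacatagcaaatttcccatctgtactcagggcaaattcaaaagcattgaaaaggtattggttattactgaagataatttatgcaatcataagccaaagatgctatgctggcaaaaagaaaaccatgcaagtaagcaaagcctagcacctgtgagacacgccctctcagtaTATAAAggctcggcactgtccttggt
Krt13: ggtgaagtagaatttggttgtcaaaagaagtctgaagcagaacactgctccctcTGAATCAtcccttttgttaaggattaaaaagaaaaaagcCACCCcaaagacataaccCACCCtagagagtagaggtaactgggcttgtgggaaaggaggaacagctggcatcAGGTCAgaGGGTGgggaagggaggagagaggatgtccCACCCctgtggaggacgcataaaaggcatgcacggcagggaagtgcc

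The Krt10 window held TATAAA, whose first base lay 26 bases before the start, and CACCC once. The Krt13 window held AGGTCA, beginning 84 bases before the start, TGANTCA at 196 bases and CACCC 4 times. Among all 32851 windows of this length in the table, AGGTCA was present in 14.0%, TGANTCA in 6.75%, CACCC in 52.0% and TATAAA in 12.4%. Of the 6 windows of the 5 members, 2 held AGGTCA (Krt13 and Krt78), 2 held TGANTCA (both starts of Krt13), 4 held CACCC (Krt10, Krt2 and both starts of Krt13) and 1 held TATAAA (Krt10). These are matches of letters and show no binding.

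The arrays were close in overall level, with medians between 5.38 and 5.50 on the log2 scale. The keratinocyte markers of this check (Krt5, Krt14, Trp63, Epcam, Cdh1, Itga6 and Dsp) were all measured. Their summed level, led by Krt14 and Krt5, was 14.58 and 14.62 on the 2 GFP arrays, against 15.13 to 15.72 on the 5 arrays without the tag. The GFP arrays stood apart in other cell type markers and in the Gapdh control probe sets. All 10 endothelial and all 10 fibroblast markers were higher there (limma with Benjamini-Hochberg adjustment over all genes). Summed endothelial levels were 14.51 and 14.66 in the GFP arrays, against 8.88 to 9.52 in the others, and summed fibroblast levels were 15.06 and 15.81, against 9.35 to 11.94. The 3' minus 5' difference of the Gapdh control probe sets was 3.19 in both GFP arrays, against -0.04 to 0.06 in the others. Whether RNA quality or the amplification of the RNA lay behind this was not tested. Of 9 immune markers 5 were called higher with the tag (median 1.31), of 6 melanocyte markers 2 (median 0.73) and of 4 sweat and sebaceous gland markers 0. Among all genes 19.8% were called with the tag, in either direction. Between the tumour types none of these marker genes was called: the carcinoma mean was higher for 7 of 7 keratinocyte markers (median 0.32), 0 of 10 endothelial (-0.51), 1 of 10 fibroblast (-0.68), 6 of 9 immune (0.19), 0 of 6 melanocyte (-0.33) and 1 of 4 gland markers (-0.25), and their part in the keratin differences was not tested. Results on the main keratins are given with and without the GFP arrays.

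Krt1, the type II keratin of the epidermal spinous layer, had the lowest values in carcinoma cells. Its levels were 5.08, 9.76 and 7.20 in carcinomas 1, 2 and 3 and 8.81 in carcinoma GFP, against 9.79 and 11.09 in papillomas 1 and 2 and 9.84 in papilloma GFP. All 4 carcinoma arrays lay below all 3 papilloma arrays, although carcinoma 2 was only just under papilloma 1, and carcinoma 1 was below the median of all probe sets on its array. The carcinoma mean was 7.71 ± 2.05 (SD, n = 4), against a papilloma mean of 10.24 ± 0.74 (SD, n = 3). The difference was -2.53 log2 units (SE 1.08), a 5.76-fold lower mean level, and was not called (limma adjusted p = 1). The exact permutation p (two-sided, as in all such tests here) was 0.0857, and 4 against 3 arrays cannot give less than 0.0571. Without the GFP arrays the difference was -3.09 (SE 1.33), within the GFP pair it was -1.03, and without carcinoma 1 it was reduced to -1.65 (SE 0.73).

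Krt10, the type I partner of Krt1, differed in the same direction on its probe set. It measured 9.50, 11.55 and 8.66 in carcinomas 1, 2 and 3 and 10.38 in carcinoma GFP, against 11.49 and 11.77 in papillomas 1 and 2 and 10.97 in papilloma GFP. Carcinoma 2 lay above papilloma 1 and papilloma GFP, so the groups overlapped, while carcinomas 1 and 3 held the lowest levels of both Krt1 and Krt10. The carcinoma mean was 10.02 ± 1.23 (SD, n = 4), against a papilloma mean of 11.41 ± 0.41 (SD, n = 3). The difference of -1.39 (SE 0.65, limma adjusted p = 1, exact permutation p = 0.143) corresponds to a 2.61-fold lower mean level. It was -1.72 (SE 0.82) without the GFP arrays and -0.59 within the GFP pair. Without carcinoma 3 it was -0.93 (SE 0.55). The 2 genes were not lowest in the same array, since Krt1 was lowest in carcinoma 1 and Krt10 in carcinoma 3.

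**Figure D1:**
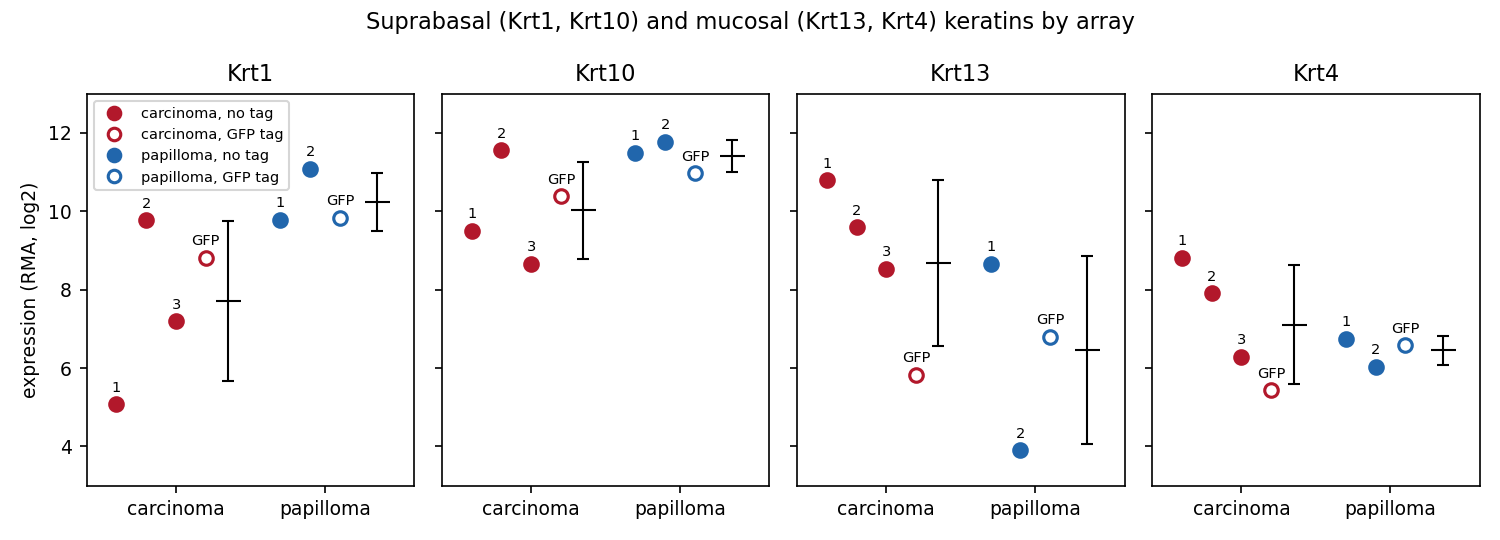
Log2 expression (RMA) of Krt1, Krt10, Krt13 and Krt4 on the brightest probe set of each gene, in carcinoma arrays at the left of each panel and papilloma arrays at the right. Points are single arrays with their replicate label, open where the title has the GFP tag, and bars show the mean ± SD over all arrays of a tumour type. Carcinoma 1 holds the lowest Krt1 level (5.08) and the highest Krt13 level (10.79).

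Krt13, the type I mucosal keratin, ran the other way. It measured 10.79, 9.59 and 8.54 in carcinomas 1, 2 and 3 and 5.83 in carcinoma GFP, against 8.65 and 3.90 in papillomas 1 and 2 and 6.79 in papilloma GFP. Among the arrays without the tag, carcinomas 1 and 2 lay above both papillomas, carcinoma 3 lay just below papilloma 1, and papilloma 2 was far below all others. The carcinoma mean was 8.69 ± 2.12 (SD, n = 4), against a papilloma mean of 6.45 ± 2.40 (SD, n = 3). The difference of 2.24 (SE 1.45, limma adjusted p = 1, exact permutation p = 0.286) corresponds to a 4.72-fold higher mean level and is within the range covered by the arrays of either group. It was 3.36 (SE 1.43) without the GFP arrays but -0.96 within the GFP pair. Leaving out papilloma 2, at 3.90, reduced it to 0.97 (SE 1.41), and leaving out carcinoma 1 reduced it to 1.54 (SE 1.47).

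Krt13 was also measured by 2 further probe sets, 1437344_x_at and 1441863_x_at, whose suffix marks probes that may also bind other transcripts. On 1437344_x_at the values were 7.86, 7.19 and 6.42 in carcinomas 1, 2 and 3 and 5.53 in carcinoma GFP, against 6.17 and 4.52 in papillomas 1 and 2 and 6.65 in papilloma GFP. On 1441863_x_at they were 8.22, 6.99 and 6.77 in carcinomas 1, 2 and 3 and 4.42 in carcinoma GFP, against 5.61 and 4.22 in papillomas 1 and 2 and 5.24 in papilloma GFP. On both of these probe sets all 3 untagged carcinomas lay above both untagged papillomas, whereas carcinoma GFP lay below papilloma GFP. Over all arrays the tumour types differed by 0.97 (SE 0.69) on 1437344_x_at, by 1.81 (SE 0.63) without the GFP arrays, and by 0.34 (SE 0.65) without papilloma 2 or 0.60 (SE 0.68) without carcinoma 1. On 1441863_x_at they differed by 1.58 (SE 0.86) over all arrays, by 2.42 (SE 0.60) without the GFP arrays and by 1.04 (SE 0.77) without carcinoma 1. By limma none of these differences was called.

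Krt4, the type II partner of Krt13, was highest in the same array as Krt13. Its brightest probe set, 1438394_x_at, has the same suffix as the 2 further ones of Krt13. On it Krt4 measured 8.81, 7.90 and 6.29 in carcinomas 1, 2 and 3 and 5.44 in carcinoma GFP, against 6.75 and 6.04 in papillomas 1 and 2 and 6.59 in papilloma GFP. Carcinomas 1 and 2 lay above every papilloma and carcinoma 3 lay between papillomas 1 and 2. The carcinoma mean was 7.11 ± 1.53 (SD, n = 4), against a papilloma mean of 6.46 ± 0.37 (SD, n = 3), and they differed by 0.65 (SE 0.79, limma adjusted p = 1, exact permutation p = 0.486). Without the GFP arrays the difference was 1.28 (SE 0.74) and within the GFP pair it was -1.15. Without carcinoma 1 almost none was left (0.09, SE 0.64). The second probe set, 1418735_at, gave 0.74 (SE 0.77) over all arrays and 8.32, 7.97 and 6.22 in carcinomas 1, 2 and 3, against 6.78 and 6.26 in papillomas 1 and 2. It measured 5.29 in carcinoma GFP and 5.59 in papilloma GFP. On this probe set the difference was 0.985 (SE 0.656) without the GFP arrays and -0.30 within the GFP pair, smaller in size than on the brightest.

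**Figure D2:**
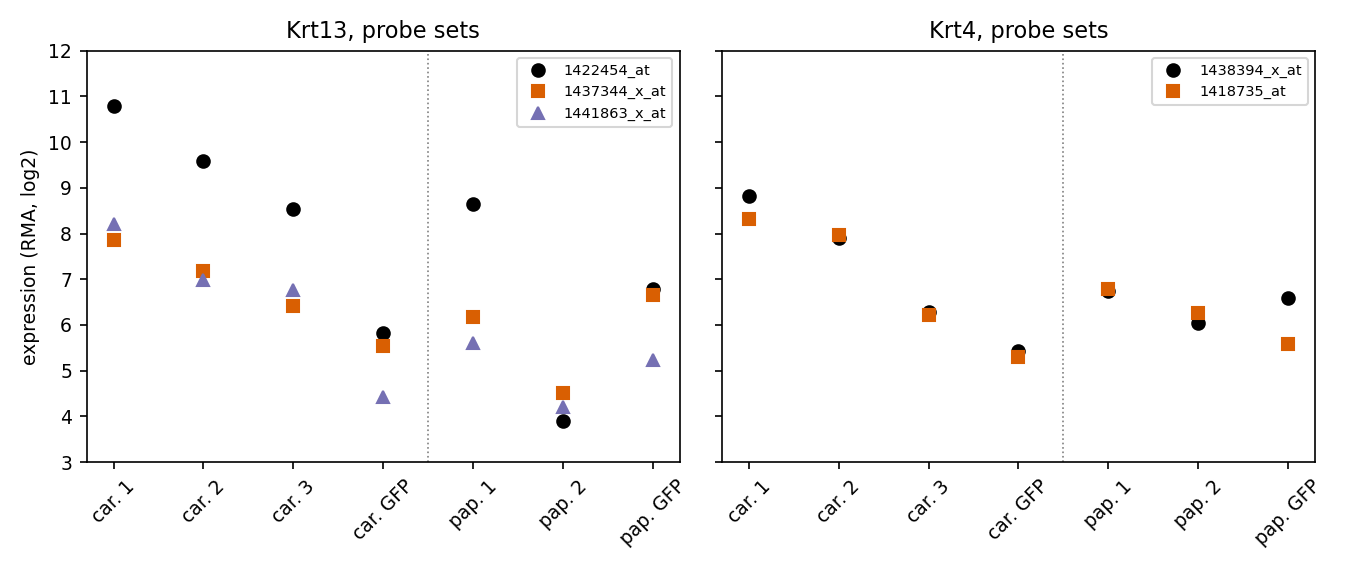
Log2 expression (RMA) of every probe set of Krt13 and Krt4 in each array, with the 4 carcinoma arrays left of the dotted line and the 3 papilloma arrays right of it. The probe sets of each gene place carcinoma 1 highest, and those of Krt13 place papilloma 2 lowest, on 1441863_x_at by a small margin (4.22, with carcinoma GFP at 4.42).

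The epidermal and mucosal keratins thus ordered the arrays differently. Among the 5 arrays without the tag, Krt13 was highest and Krt1 lowest in carcinoma 1, and Krt13 was lowest and Krt1 highest in papilloma 2. Carcinoma 2 departed from this order, with Krt13 at 9.59 and Krt1 at 9.76, the second highest Krt13 level and a Krt1 level close to that of papilloma 1. The likeness of 2 genes was measured as the root mean square difference of their log2 profiles over the 7 arrays, each centred on its own mean. This difference was 1.12 between Krt1 and Krt10 and 1.44 between Krt4 and Krt13, whereas it was 3.73 between Krt1 and Krt13, 2.81 between Krt10 and Krt13 and 2.62 between Krt1 and Krt4. For comparison, the median over the 9092 other genes above the median level was 1.96 to Krt1, 1.16 to Krt10, 1.09 to Krt4 and 2.14 to Krt13. Krt10 to Krt1 and Krt4 to Krt13 were thus closer than the medians to Krt1 and Krt13, but this measure did not single out the partners in the other direction. All 4 remaining members, which varied little, were closer to Krt10 (0.92 to 1.11) than Krt1 was, and all 4 were closer to Krt4 (0.95 to 1.37) than Krt13 was.

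**Figure D3:**
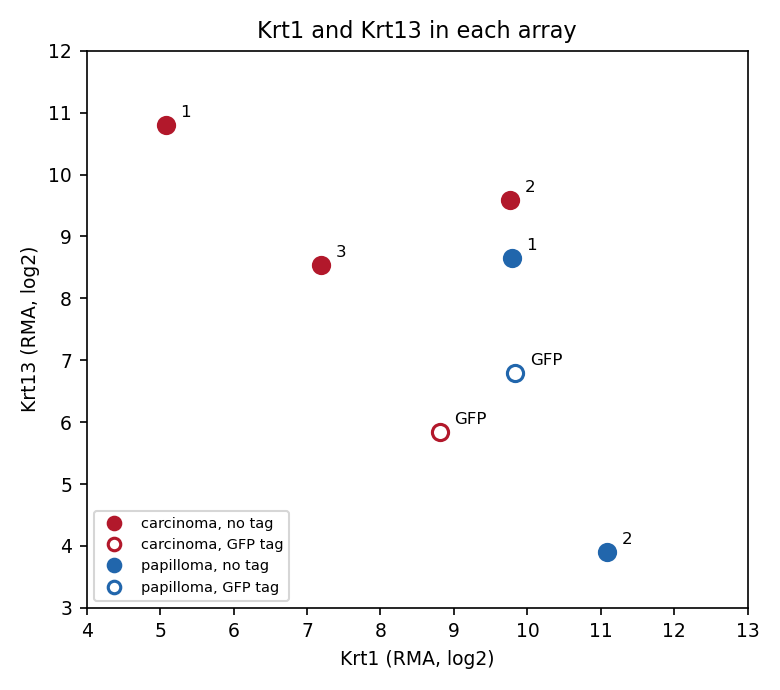
Log2 expression (RMA) of Krt1 on the horizontal axis and Krt13 on the vertical axis, 1 point for each of 7 arrays with its replicate label, open where the title has the GFP tag. Carcinoma 1 lies at the top left (5.08 and 10.79) and papilloma 2 at the bottom right (11.09 and 3.90), with both GFP arrays below carcinoma 2 and papilloma 1.

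The remaining 4 members were dimmer and varied little. Krt2, a keratin of the upper spinous and granular layers, was above the array median on 0 of 7 arrays and ranged from 3.88 to 4.59. At this level its probe set may not show a change. Krt77, found in sweat gland ducts of human skin, was above the array median on 2 of 7 arrays, carcinoma GFP (5.63) and papilloma 2 (5.98), and was between 4.87 and 5.16 in the others. Krt78, a suprabasal type II keratin, was above the median on all 7 arrays and ranged only from 5.60 in carcinoma GFP to 6.65 in papilloma GFP. Krt80, a type II keratin of many epithelia that lies near the cell margin in differentiating cells, ranged from 5.998 in carcinoma 1 to 6.80 in papilloma 2. Their differences between the tumour types over all arrays were -0.24 (SE 0.19) for Krt2, -0.18 (SE 0.32) for Krt77, -0.13 (SE 0.26) for Krt78 and -0.27 (SE 0.22) for Krt80.

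Some of these smaller genes looked different once the GFP arrays were set aside. Krt80 measured 5.998, 6.34 and 6.17 in carcinomas 1, 2 and 3, against 6.56 and 6.80 in papillomas 1 and 2, a difference of -0.51 (SE 0.21). All 3 of these carcinomas lay below both papillomas, but carcinoma GFP (6.30) lay above papilloma GFP (6.05). Krt78 measured 6.25, 6.28 and 6.05 in carcinomas 1, 2 and 3, against 5.91 and 5.99 in papillomas 1 and 2, a difference of 0.25 (SE 0.20), the opposite sign of that with all arrays. Krt77 measured 4.89, 4.92 and 5.16 in carcinomas 1, 2 and 3, against 5.14 and 5.98 in papillomas 1 and 2, a difference of -0.57 (SE 0.30). None of the 3 differences passed the threshold in the fit without the GFP arrays (limma adjusted p = 1 for each).

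Over all arrays 6 of the 8 keratins had a lower and 2 (Krt4 and Krt13) a higher carcinoma mean. The median difference of the 8 was -0.21, against -0.02 over all 18193 genes, of which 46.9% were higher. By limma with Benjamini-Hochberg adjustment over all genes, 0 of the 8 members were called at an adjusted p of 0.05, where 0% of all genes were called in this comparison. Over the probe sets, 0 of the 11 were called, again with 0% of the 34945 probe sets called. At an unadjusted p under 0.05 there were 0 of the 8 members and 0.616% of all genes. That is less than the share of 0.05 expected if no gene differed, so the p-values of this fit may run large. The tag, with which 19.8% of all genes were called, was left in its residual spread. With the tag as a covariate 331 of the 18193 genes and 0 members were at that level, and without both GFP arrays 308 genes and 0 members. Both gene counts were still short of the share expected if no gene differed, and the cause was not tested. With the replicate label as a block, a fit to which carcinoma 3 adds nothing since it has no partner, the members at that level were 1 (Krt1, at -2.36, SE 0.77) of 8, against 2.75% of all genes, and again none was called after adjustment. The Krt1 difference was -4.71 in pair 1, -1.32 in pair 2 and -1.03 in the GFP pair. Its sign had to be the same in any pairing, since all carcinoma arrays lay below all papilloma arrays. Relative to Krt5 and Krt14 in each array there were 2 (Krt1 and Krt10), against 0.269% of all genes. That scaling subtracts the same value from every gene of an array. With it the count over all genes was 49, against 112 in the main fit, so this share is a smaller background than the one above. Only Krt1 among the 8 had groups that did not overlap with carcinoma below, as had 0.912% of all genes. In these bulk samples, fewer suprabasal cells and less keratin RNA per cell cannot be told apart.

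**Figure D4:**
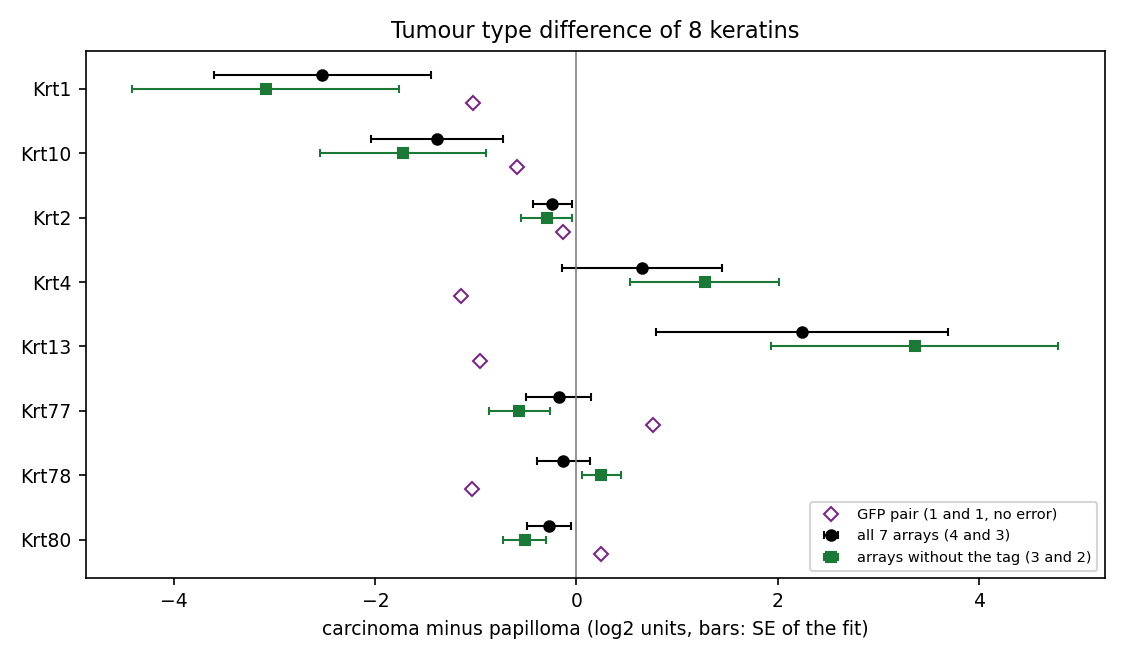
Carcinoma minus papilloma difference in log2 units for each of the 8 keratins, over all 7 arrays (circles), over the arrays without the tag (squares) and within the GFP pair (open diamonds, no error). Bars are the SE of the limma fit. Krt13 and Krt4 lie right of 0 with the untagged arrays (3.36 and 1.28) and left of 0 within the GFP pair (-0.96 and -1.15).

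The GFP pair and the untagged arrays gave opposite signs for Krt4, Krt13, Krt77, Krt78 and Krt80. The difference between these effects was tested as the interaction of tag and tumour type, with the 1 against 1 GFP arrays assumed to vary like the others. It was -4.32 (SE 2.64) for Krt13, -2.43 (SE 1.36) for Krt4, 1.33 (SE 0.56) for Krt77, -1.29 (SE 0.36) for Krt78 and 0.76 (SE 0.39) for Krt80. For Krt1 and Krt10, whose sign was the same in both, it was 2.06 (SE 2.44) and 1.14 (SE 1.52). None of the 8 members was called (limma adjusted p = 1 for each), and 0% of all genes were. At an unadjusted p under 0.05 there was 1 member, Krt78, and 2.14% of all genes.

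Set against the arrays without the tag, the GFP arrays had mean levels within 1 SD of the untagged mean for all 4 main keratins on their brightest probe sets. For Krt1 the GFP mean was 9.32 ± 0.73 (SD, n = 2), against 8.58 ± 2.42 (SD, n = 5) untagged, a difference of 0.49 (SE 1.19) in a fit with tumour type as a covariate. For Krt10 it was 10.67 ± 0.42 (SD, n = 2), against 10.60 ± 1.42 (SD, n = 5) untagged, with a difference of -0.06 (SE 0.73). The mucosal pair had lower GFP means, 6.31 ± 0.68 (SD, n = 2) against 8.30 ± 2.62 (SD, n = 5) untagged for Krt13, and 6.01 ± 0.81 (SD, n = 2) against 7.16 ± 1.17 (SD, n = 5) untagged for Krt4. The fitted differences were -1.77 (SE 1.47) for Krt13 and -1.09 (SE 0.78) for Krt4. On 1418735_at of Krt4 the GFP mean, 5.44 ± 0.21, was more than 1 SD under the untagged 7.11 ± 0.98. The fitted difference there was -1.61 (SE 0.61). For Krt13 it was -0.25 (SE 0.78) on 1437344_x_at and -1.39 (SE 0.81) on 1441863_x_at. The other 4 members differed by -0.23 to 0.02. By limma 0 of the 8 members were called, where 19.8% of all genes were.

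On its brightest probe set Krt13 was sensitive to single arrays in this comparison. Without papilloma 2 its difference was -3.03 (SE 0.73, limma adjusted p = 0.0352), and with array weights it was -2.80 (SE 0.86, limma adjusted p = 0.0397), but without carcinoma GFP it was 0.52 (SE 1.92), the opposite sign. Keratinocyte markers moved with the tag, since 5 of 7 were called lower with a median of -1.02, where 19.8% of all genes were called. Their part in the keratin values, and that of the endothelial and fibroblast markers given above, was not tested. When each array was expressed relative to its own mean of Krt5 and Krt14, the median of all genes was 0.64 higher in the GFP arrays. On that scale Krt1 differed by 1.18 (SE 0.80), Krt10 by 0.63 (SE 0.54), Krt4 by -0.40 (SE 0.59) and Krt13 by -1.08 (SE 0.97), so that Krt10 lay close to the median of all genes, and again 0 members were called.

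The basal keratins, which pair before Krt1 and Krt10 appear, differed little between the tumour types. Krt5 was at 13.26 ± 0.35 (SD, n = 4) in carcinoma cells, against 13.21 ± 0.34 (SD, n = 3) in papilloma cells, and Krt14 was at 13.66 ± 0.66, against 13.57 ± 0.47. Krt15, a keratin of basal and hair follicle stem cells, differed by -0.47 (SE 0.72). The stress keratins Krt6a, Krt16 and Krt17, which appear in wounded and hyperproliferative epidermis, differed by 0.14, 0.06 and 0.06. None of the 3 basal and 4 stress keratins was called. With the tag Krt14 (-0.98), Krt15 (-1.70) and Krt17 (-2.29) were called lower, where 19.8% of all genes were called. Expressed relative to Krt5 and Krt14 in each array, the tumour type differences of the suprabasal and mucosal keratins changed little, to -2.59 (SE 0.98) for Krt1, -1.45 (SE 0.62) for Krt10, 2.17 (SE 1.15) for Krt13 and 0.59 (SE 0.67) for Krt4.

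Genes of the cornified envelope and late differentiation were mixed. Of 36 listed genes 33 were measured, 20 with a higher and 13 with a lower carcinoma mean and a median of 0.06, and 0 were called in either direction. The largest differences went both ways. Sprr3, a cross-linked envelope protein, differed by 1.11 (SE 0.69), Ivl, the envelope protein involucrin, by 1.07 (SE 0.69) and Tgm1, the transglutaminase that cross-links the envelope, by 1.06 (SE 0.94). Dsc1, a suprabasal desmosomal cadherin named here after its value was seen, differed by -1.05 (SE 0.64). In carcinoma 1, where Krt1 was lowest, the summed level of the list was 14.55, the highest of the 7 arrays and about equal to carcinoma 2, and Tgm1 measured 10.46 and Sprr3 8.36. In carcinoma 3, where Krt10 was lowest, the summed level was the lowest (13.05), but close to carcinoma GFP (13.09) and papilloma GFP (13.13). Such sums weigh the bright genes most, such as Krtdap (13.14 in carcinoma 1). With the tag 2 of the 33 genes were called, where 19.8% of all genes were, Lor (loricrin) higher by 1.94 (SE 0.50, limma adjusted p = 0.037) and Krtdap lower, at -2.39 (SE 0.36, limma adjusted p = 0.00513).

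Regulators of differentiation were mixed as well. Of 20 listed, 18 were measured, 11 with a higher and 7 with a lower carcinoma mean, a median of 0.10 and 0 called. Nr2f2 itself differed by 1.22 (SE 0.57) and Grhl3, a transcription factor of barrier formation, by 1.01 (SE 0.81). Gata3, a factor of skin and hair follicle differentiation, differed by -1.03 (SE 0.92), with 4.87 in carcinoma 1 against 7.20 to 7.99 in the other carcinomas and 6.18 to 8.76 in the papillomas. Carcinoma 1 was thus lowest of all 7 arrays in both Krt1 and Gata3. With the tag Prdm1 was called higher (1.26) and Cebpb (-2.86), Barx2 (-2.87), Ovol1 (-2.20) and Trp63 (-1.34) lower. The other measured regulators were not called, and 19.8% of all genes were.

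Other keratins of tongue, palate, hair and nail were mostly dim, with 6 of 21 measured genes higher and 15 lower in the carcinoma mean, a median of -0.11 and 0 called. The largest differences were -1.01 (SE 0.54) for Krt27, 0.54 (SE 1.06) for Krt12 and -0.38 (SE 0.30) for Krt28. The Krt27 difference rested on papilloma 2, at 7.17, against 4.46 to 5.39 in the other 6 arrays. Krt12, the corneal keratin, measured 9.05 in carcinoma 1, above 4.58 to 6.95 in the rest. Among the 6 simple epithelial keratins 4 had a higher and 2 a lower carcinoma mean, with a median of 0.06 and 0 called. Krt18 differed by 2.30 (SE 1.08), Krt8 by 1.65 (SE 0.86) and Krt23 by -0.54 (SE 0.64).

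**Figure D5:**
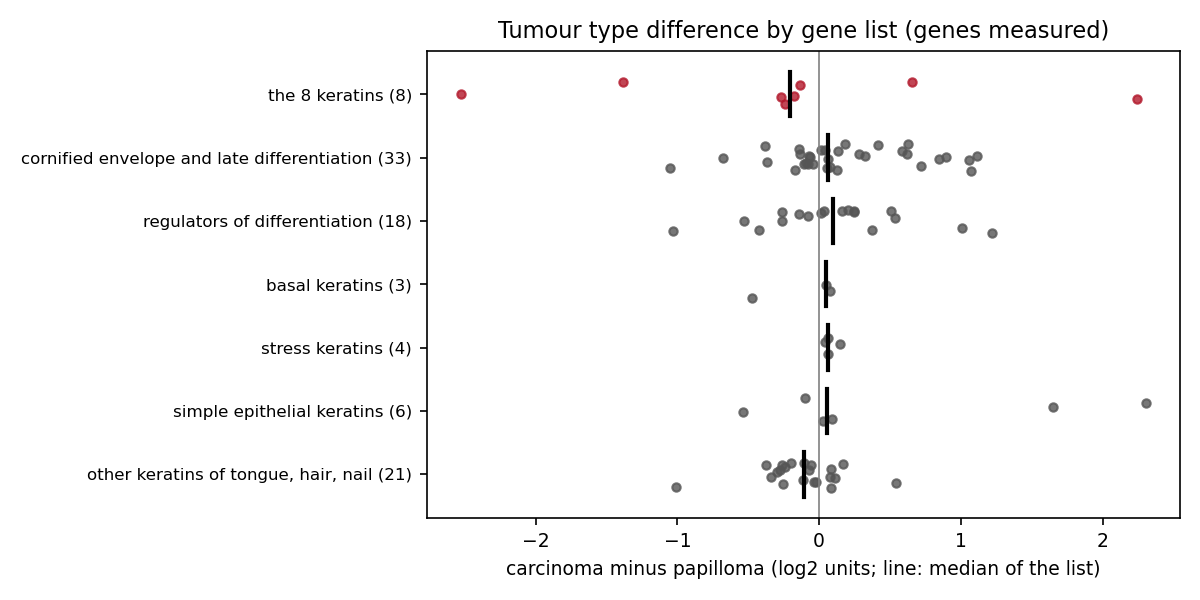
Carcinoma minus papilloma difference in log2 units over all 7 arrays for the 8 keratins (top row) and for the measured genes of 6 other lists. Each point is a gene and each black line the median of its row. Krt1 (-2.53) and Krt13 (2.24) lie at the outer ends of the top row, and in the simple keratin row Krt18 lies at 2.30.

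The genes whose profile over the 7 arrays was most like each of the main keratins were found by the smallest root mean square difference, among genes above the median level. For Krt10 these were Gjb2, a gap junction protein, at 0.27, then Vegfd at 0.43, Cdhr1 at 0.45 and Cxcl14, a chemokine, at 0.46. Gjb2 measured 9.74, 12.10 and 8.62 in carcinomas 1, 2 and 3 and 10.64 in carcinoma GFP, against 11.78 and 11.58 in papillomas 1 and 2 and 10.72 in papilloma GFP. As its selection for likeness implies, it shared with Krt10 the low values in carcinomas 1 and 3 and the high value in carcinoma 2.

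For Krt1 the nearest were Psmb8, an immunoproteasome subunit, at 0.86, Pou3f1, a POU transcription factor, at 0.89, Fam81a at 0.91 and Cachd1 at 0.93. For Krt4 they were Endou at 0.40, Cers3, a ceramide synthase of the epidermal barrier, at 0.40, Zdhhc13, a palmitoyltransferase, at 0.44 and Gsta4, a glutathione transferase, at 0.49. For Krt13 they were Prkg2, a kinase activated by cyclic GMP, at 0.84, Krt18 at 0.84, Adgrg2 at 0.92 and Serpinb2, a serine protease inhibitor, at 0.98. Krt18 measured 11.07, 9.58 and 9.26 in carcinomas 1, 2 and 3 and 7.54 in carcinoma GFP, against 9.28 and 5.79 in papillomas 1 and 2 and 6.12 in papilloma GFP. Like Krt13, to which it was matched, it was highest in carcinoma 1 and lowest in papilloma 2. Its GFP arrays ran the other way, with carcinoma GFP above papilloma GFP. None of the 16 nearest genes passed the threshold between the tumour types (limma adjusted p = 1 for each), and 0% of all genes did.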

How the data were processed

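Per the labels' protocols, RNA of the sorted cells was amplified, labelled with biotin and hybridised to Affymetrix mouse 430 strip arrays, and the authors normalized the data with RMA. The deposited values lie between 2.72 and 14.51 and were read as log2, a scale the labels do not state. RMA and affy are the tools in the submitters' processing notes; their versions were not given in the sources used here. Of 45101 probe sets, 64 controls were left out. Gene names come from a platform annotation of 2016, updated through gene identifiers with RefSeq. Where a gene had several probe sets, the one brightest on average stood for it. Summed levels of marker lists are log2 of the summed linear values of the genes.

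Tumour types, the GFP tag and their interaction were compared with limma 3.58.1 in R 4.3.3 (lmFit, eBayes), with Benjamini-Hochberg adjustment over all 18193 genes at 0.05, or over all probe sets. The tests of tumour type and of the tag were checked on simulated arrays with independent noise. For tumour type those arrays held no tag effect, unlike the real ones, and the interaction and the blocked fit were not simulated. Single genes were also tested by exact permutation over the 35 arrangements of the arrays, which ignores the replicate labels. Figures used matplotlib 3.10.9. The members and lists were chosen with earlier results of these data known. Named by rule were all members, the 3 genes of each context list with the largest tumour type difference, and the 4 nearest genes of Krt1, Krt10, Krt4 and Krt13. Epcam was named as a sort antigen, and values of other cell type markers are given as sums and counts.

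Replicate labels 1, 2 and GFP occur in both tumour types. Deviations from the group means correlated across genes at 0.476, 0.194 and 0.861 for these pairs. Since each was over 0.1 the labels were used as a block in an alternative fit, on this ground in the data alone. The main fits and the permutation tests were unpaired. Blocked values are given where they move a count. Untagged arrays of different labels also correlated, at 0.207 to 0.683, all above the 0.194 of pair 2. The cut-off of 0.1 thus could not tell pairs from other untagged arrays, and whether labels 1 and 2 mark pairs is not known.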

Additional observations from a re-analysis of the deposited data

How the results depend on the processing

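Across the alternatives tried (mean of all probe sets, dim genes left out, repeated quantile normalization, median centring, scaling to Krt5 and Krt14, array weights, trended and robust variance, the GFP tag as covariate, replicate block, no GFP arrays and each array left out), 0 members and 0 genes were called between the tumour types. Genes at an unadjusted p under 0.05 numbered 112, against 46 to 560 under the alternatives, and members 0, against 0 to 2. Krt1, Krt10, Krt2 and Krt80 kept a lower and Krt4 and Krt13 a higher carcinoma mean in all of these, where they were fitted, with Krt1 from -3.21 to -1.65, Krt10 from -1.89 to -0.93, Krt4 from 0.09 to 1.28 and Krt13 from 0.97 to 3.36. With the replicate block the differences were -2.36 (SE 0.77) for Krt1 and 2.29 (SE 1.24) for Krt13, and it changed no call at the adjusted threshold. Krt2 and Krt77 are absent from the fit without dim genes. The sign turned for Krt78 with array weights (0.085) and without both GFP arrays (0.25), and leaving out single arrays gave Krt78 -0.27 to 0.10 and Krt77 -0.41 to 0.15.

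In the GFP comparison, 3601 genes were called, against 5440 with scaling to Krt5 and Krt14, 6819 with array weights and 861 to 3955 with single arrays left out (861 without carcinoma GFP and 1462 without papilloma GFP), and the members called were 1 (Krt13) with array weights and 0 to 1 with single arrays left out. Scaling to Krt5 and Krt14, with the median of all genes at 0.64, turned Krt10 to 0.63, Krt2 to 0.59 and Krt80 to 0.46. Krt10 was 0.077 without the tumour type covariate, and Krt78 was -0.009 with repeated quantile normalization and -0.17 with array weights. With single arrays left out the ranges were -0.60 to 1.46 for Krt1, -0.66 to 0.47 for Krt10, -0.212 to 0.031 for Krt2, -2.23 to 0.19 for Krt4, -3.81 to 0.52 for Krt13, -0.68 to 0.64 for Krt77, -0.59 to 0.70 for Krt78 and -0.63 to 0.13 for Krt80. For the interaction, trended and robust variance called 3 genes, none of them a member. The cause of these shifts was not tested. The number of arrays limits every value, and Krt2 and most values of Krt77 lie under the array median.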
